A study of Mus musculus with 21 samples.

Results

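Rgs4, Ebf2, Gdf10, C1qtnf1 and Bhlhe22 are 5 of the 48321 gene symbols counted in embryoid bodies that expressed forms of the transcription factor TWIST1. They were chosen by their measured levels in these same samples, as the largest rises in lines expressing TWIST1 joined to an E-protein over the line expressing TWIST1 alone or the line expressing a TWIST1 homodimer. Rgs4 was picked for its rise over the monomer in all 3 heterodimer lines and over the homodimer. Bhlhe22 was picked over the monomer in the lines labelled with TCF3 and TCF12, C1qtnf1 over the monomer with TCF3, Gdf10 over the monomer with TCF4 and TCF12, and Ebf2 for the 3 heterodimer lines together over the homodimer. Their height in the heterodimer lines against the other groups is therefore how they were found, and it is given below as a description with no test.

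The samples were mouse embryonic stem cells of the A2loxCre line (strain label C57BL/6), grown as floating aggregates called embryoid bodies and collected on day 3 of differentiation. There were 7 groups of 3 samples. The parental group was A2loxCre without a TWIST1 construct, with doxycycline. The uninduced monomer group carried the integrated Twist1 monomer and received no doxycycline, and the induced monomer group was the same genotype with doxycycline. The other 4 groups, all with doxycycline, carried the Twist1 homodimer, the Twist1-Tcf3 dimer, the Twist1-Tcf4 dimer or the Twist1-Tcf12 dimer. Each construct lay behind a promoter that doxycycline switches on, and induction lasted 16 h. The labels do not say whether a line is 1 clone or whether the 3 samples of a group came from separate cultures, so p-values measure only the spread between these samples, which may be technical.

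Basic helix-loop-helix (bHLH) proteins bind DNA as dimers, at short elements called E-boxes with the letters CANNTG. TWIST1, a regulator of mesenchyme and of the cranial neural crest, dimerises with itself or with the widely expressed E-proteins TCF3, TCF4 and TCF12, and a construct that joins 2 partners fixes the choice. The 5 genes have separate roles. Bhlhe22 and Ebf2 encode transcription factors (Bhlhe22 is itself a bHLH protein of the developing nervous system, and Ebf2 belongs to the early B-cell factor family). Gdf10 and C1qtnf1 encode secreted proteins, and Rgs4 encodes an intracellular brake on G-protein signalling.

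Library totals ran from 6648842 to 15999693 counts, so that 1 count was worth 0.0608 to 0.163 CPM, the count scaled to library size that is the unit below. The 6 listed pluripotency genes were detected in every group. Twist1 averaged 8.11 and 5.07 CPM in the parental and uninduced monomer lines, 613.0 CPM in the induced monomer line, 182.3 CPM in the homodimer line and 39.4 to 55.2 CPM in the heterodimer lines. Tcf4 averaged 330.4 CPM in the TCF4 dimer line and 33.2 to 52.1 CPM elsewhere. Tcf3 was not raised in the 3 libraries labelled with its dimer (154.2 CPM against 167.2 CPM in the parental line), and Tcf12 did not set apart those labelled with its own (53.2, 117.7 and 108.2 CPM in samples 1 to 3, against 91.3 to 120.2 CPM with TCF3), so both are called by their labels, and "TCF3" and "TCF12" below mean the libraries so labelled. Sample 1 labelled TCF12 dimer stood apart from its replicates, with a chi-square per degree of freedom of 94.9 and 116.3 against them where the other pair in that group gave 3.78. Its deviations followed transcript length (Spearman rho -0.67 across 8953 genes, which are not independent). Means, summed levels and tests of the 5 genes that use it are given with and without it below. Sample 1 of the uninduced monomer line stood apart less, at 39.2 and 43.9.

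All 5 genes lie on different stretches of the GRCm38 genome. Rgs4 (ENSMUSG00000038530.11) lies on the minus strand at chr1:169741477-169747642, Gdf10 (ENSMUSG00000021943.7) on the plus strand at chr14:33923587-33937983 and Ebf2 (ENSMUSG00000022053.13) on the plus strand at chr14:67233292-67430918. C1qtnf1 (ENSMUSG00000017446.14) lies on the plus strand at chr11:118428203-118449963 and Bhlhe22 (ENSMUSG00000025128.7), a gene of 1 exon, on the plus strand at chr3:18054174-18057517. Exons of 2 antisense genes overlap members, Gm10860 by 424 bases of Ebf2 and Gm11747 by 642 bases of C1qtnf1. Neither exceeded 1 count in any library, and the strand setting of the counting is not given in the sources used here.

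The RefSeq promoter table (GRCm38.p6) matched 2 of the 5 genes, Rgs4 and Gdf10. It did not list Ebf2, C1qtnf1 or Bhlhe22. Both promoters are shown because the 2 genes were high in the same 9 libraries while their E-box content differs. The 250 bases before each start, 5′ to 3′ on the gene's own strand, are at chr1:169747643-169747892 for Rgs4 and chr14:33923337-33923586 for Gdf10, with every CANNTG in capitals:
Rgs4: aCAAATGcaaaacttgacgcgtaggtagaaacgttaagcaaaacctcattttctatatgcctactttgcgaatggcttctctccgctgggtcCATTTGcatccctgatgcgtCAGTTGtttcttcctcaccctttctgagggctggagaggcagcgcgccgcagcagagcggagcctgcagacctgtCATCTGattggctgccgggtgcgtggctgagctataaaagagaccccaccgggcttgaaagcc
Gdf10: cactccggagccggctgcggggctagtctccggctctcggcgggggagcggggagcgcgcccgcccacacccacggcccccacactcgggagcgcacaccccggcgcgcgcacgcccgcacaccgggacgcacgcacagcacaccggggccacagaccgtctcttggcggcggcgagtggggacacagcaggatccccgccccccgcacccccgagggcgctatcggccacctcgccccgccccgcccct
In the 300-base window of the table (250 bases before the start and 50 after), Rgs4 held 5 CANNTG sites, beginning at -249, -158, -138, -63 and 43 from the start. The site at -63 reads CATCTG, a form that TWIST1 is known to favour. Gdf10 held 0 CANNTG sites in the same window. Of 32851 promoters of that length, 72.3% held at least 1 CANNTG (a palindromic pattern, so both strands are covered), 2.1% held 5 or more, 17.2% held CATCTG or its reverse complement CAGATG, and 16.3% held CAGCTG, all of which are also CANNTG. A match describes these letters and is not a binding site.

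In the 12 libraries without a heterodimer the 5 genes were near the limit of detection. Rgs4, Ebf2, Gdf10 and C1qtnf1 never exceeded 4 counts there. The limit that a count of 0 allows, taken as 3 counts, lay between 0.269 and 0.488 CPM per library in these 12 and covers counting error only. All 5 genes passed the filter on low counts, but these 4 passed it only through the heterodimer libraries where they are high. Bhlhe22 reached 10 counts in sample 3 of the parental line and 11 to 15 counts in the homodimer line. In bulk RNA, fewer cells of a type and less RNA per cell cannot be told apart.

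**Figure D1:**
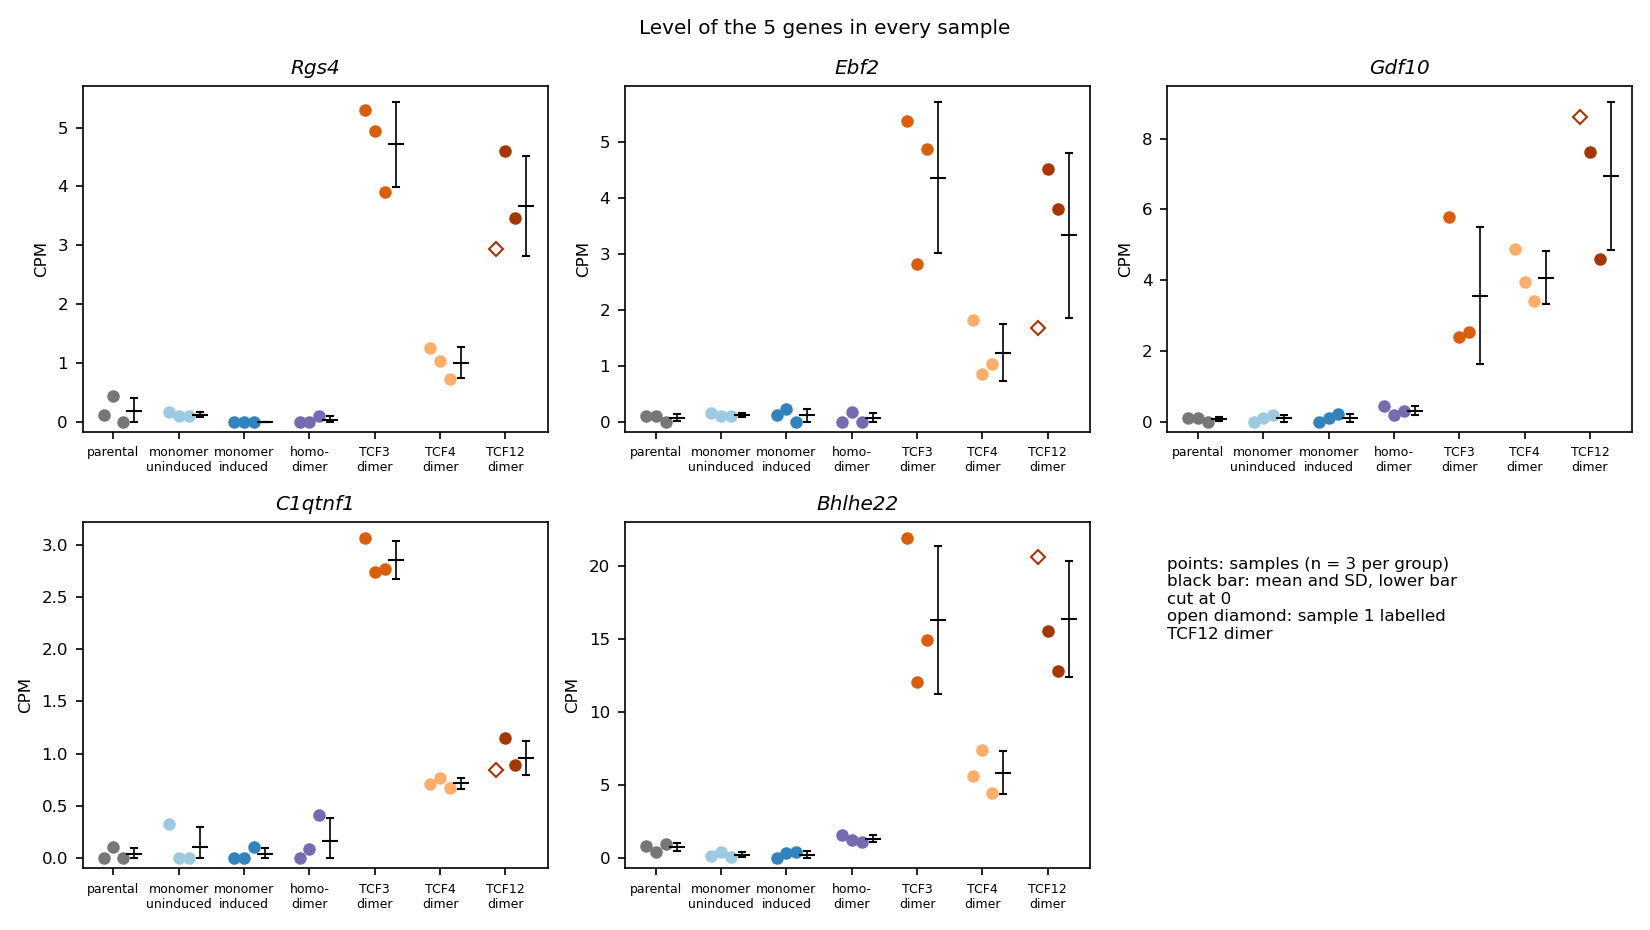
Level of each gene in all 21 samples, in CPM on a linear axis that differs between panels. Points are samples, the black bars are mean and SD of 3 (cut at 0), and the open diamond is sample 1 labelled TCF12 dimer. In every panel the 9 heterodimer points lie above the 12 others, and in all panels but that of Gdf10 the TCF4 dimer points are the lowest of the heterodimer points, apart from 1 Ebf2 value.

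Bhlhe22, the transcription factor, had the highest level of the 5. Counts over samples 1 to 3 of the parental line were 8, 4 and 10. They were 1, 4 and 1 without induction of the monomer, 0, 3 and 4 with it, and 15, 14 and 11 for the homodimer. With TCF3 the gene had 265, 137 and 184 counts, with TCF4 72, 87 and 74, and with TCF12 197, 190 and 159. The levels were 21.9, 12.1 and 15.0 CPM with TCF3, 5.66, 7.44 and 4.5 CPM with TCF4 and 20.7, 15.6 and 12.8 CPM with TCF12. The TCF3 and TCF12 values interleaved, and every TCF4 value lay below all of them. Below the heterodimers came the homodimer line at 1.34 ± 0.25 CPM, the parental line at 0.772 ± 0.30, the induced monomer line at 0.256 ± 0.23 and the uninduced monomer line at 0.226 ± 0.17 CPM (SD, n = 3). The homodimer samples (1.13 to 1.62 CPM) all lay above the parental samples (0.434 to 1.01 CPM), and these all lay above the 6 monomer samples (0 to 0.430 CPM), though by as little as 0.434 against 0.430 CPM, each of which is 4 counts. Without sample 1 the TCF12 mean of Bhlhe22 was 14.2 ± 1.9 CPM (n = 2) in place of 16.4 ± 4.0 (SD, n = 3), beside 16.3 ± 5.0 with TCF3. Summed over the 9 heterodimer libraries the level was 9.29 times that of the homodimer line (exact 95% interval 6.79 to 13.1, counting error only) and 47.5 times that of the induced monomer line (23.0 to 118.5).

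Ebf2 encodes a transcription factor with roles in neuronal, bone and brown-fat development. It had 2 counts in all over the 3 parental samples, 3 in each monomer group and 2 in the homodimer line. In samples 1 to 3 it had 65, 32 and 60 counts with TCF3, 23, 10 and 17 with TCF4 and 16, 55 and 47 with TCF12. In CPM these were 5.37, 2.82 and 4.88, then 1.81, 0.855 and 1.03, then 1.68, 4.51 and 3.79. The lowest TCF12 value is that of sample 1, the library that stands apart, and it is the only TCF3 or TCF12 value below a TCF4 value. Without it the TCF12 mean was 4.15 ± 0.51 CPM (n = 2) in place of 3.33 ± 1.47 (SD, n = 3). The 9 heterodimer libraries together stood 44.2 times as high as the homodimer line (exact 95% interval 12.1 to 366.8) and 26.4 times as high as the induced monomer line (8.96 to 128.7).

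Gdf10 encodes a secreted growth factor of the TGF-beta superfamily, also called BMP3b. It had 2 counts in all for the parental samples, 3 for each monomer group and 9 for the homodimer, whose samples gave 4, 2 and 3. The heterodimer counts were 70, 27 and 31 with TCF3, 62, 46 and 56 with TCF4 and 82, 93 and 57 with TCF12. In CPM they were 5.79, 2.38 and 2.52, then 4.88, 3.93 and 3.41, then 8.60, 7.63 and 4.60. Gdf10 alone among the 5 had its lowest heterodimer mean with TCF3 (3.56 ± 1.93 CPM), close to that with TCF4 (4.07 ± 0.74 CPM). Its highest mean was with TCF12 (6.95 ± 2.09 CPM, SD, n = 3, or 6.12 ± 2.14 with sample 1 left out, n = 2). The lines overlapped. Together the heterodimer libraries stood 15.8 times as high as the homodimer line (exact 95% interval 8.28 to 34.9) and 42.6 times as high as the induced monomer line (14.5 to 207.1).

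C1qtnf1 encodes a secreted protein of the C1q and tumour necrosis factor related family, relatives of adiponectin. Over 3 samples it had 1 count in all for the parental line, 2 and 1 for the uninduced and induced monomer, and 5 for the homodimer, 4 of these in sample 3. With TCF3 it had 37, 31 and 34 counts (3.06, 2.74 and 2.77 CPM), with TCF4 9, 9 and 11 (0.708, 0.770 and 0.669 CPM) and with TCF12 8, 14 and 11 (0.839, 1.15 and 0.888 CPM). The TCF3 libraries held the 3 highest values. The TCF12 samples all lay above the TCF4 samples in CPM, by little, and their counts overlapped. The mean was 2.85 ± 0.18 CPM with TCF3, 0.716 ± 0.051 with TCF4 and 0.959 ± 0.17 with TCF12 (SD, n = 3), or 1.02 ± 0.18 without sample 1 (n = 2). The summed level was 8.93 times that of the homodimer line (exact 95% interval 3.75 to 27.9). Genes on chromosome 11, where C1qtnf1 lies, were shifted as a whole with TCF3. Over the 736 genes there that averaged at least 10 CPM, the median log2 difference was 0.19 against TCF4 and 0.15 against TCF12, where all 9183 such genes gave -0.01 and -0.02. For the 3 heterodimer lines together it was 0.08 to 0.09 over each of the other 4 groups. On chromosome 14, where Ebf2 and Gdf10 lie, 316 such genes gave -0.10 and -0.12 against the uninduced and induced monomer lines and 0.02 against the parental and homodimer lines. With TCF3 the chromosome 14 median was 0.04 against TCF4 and 0.09 against TCF12. Chromosome 1, where Rgs4 lies, gave 0.07 and 0.09 over 500 such genes. Chromosome 3, where Bhlhe22 lies, gave -0.02 and -0.03 over 421. The part of these shifts in the values of the members was not tested.

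Rgs4 encodes a GTPase-activating protein that shortens signalling through the Gi and Gq classes of G proteins. It was at 0 counts in all 3 induced monomer samples, which allows up to 0.111 CPM over that group. It had 1 count in each uninduced monomer sample, 1, 4 and 0 in the parental samples and 0, 0 and 1 in the homodimer samples. In samples 1 to 3 it had 64, 56 and 48 counts with TCF3, 16, 12 and 12 with TCF4 and 28, 56 and 43 with TCF12. These are 5.29, 4.94 and 3.90 CPM, then 1.26, 1.03 and 0.730, then 2.94, 4.59 and 3.47. Every TCF3 and TCF12 value lay above every TCF4 value. The TCF12 mean was 3.67 ± 0.85 CPM (SD, n = 3), or 4.03 ± 0.79 without sample 1 (n = 2). The 9 heterodimer libraries together were at least 27.2-fold higher than the induced monomer line, taking 3 counts over that group as its floor, and 91.2 times as high as the homodimer line, whose single count leaves an exact 95% interval of 16.3 to 3612. Without sample 1 labelled TCF12 dimer, the summed levels of the 5 genes over the other groups were 0.923 (Gdf10) to 1.04 (C1qtnf1) times those with all 9 heterodimer libraries.

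The order of the 5 genes can be compared only per length. Per kilobase of exon, Bhlhe22 stood highest in each heterodimer line, at 4.88 CPM with TCF3, 1.75 with TCF4 and 4.89 with TCF12. Rgs4 was second with TCF3 (1.52 CPM per kilobase), and Gdf10 was second with TCF4 (0.782) and TCF12 (1.33). Ebf2, with the longest exon sequence of the 5 (6928 bases), was the lowest with TCF3 (0.629) and TCF4 (0.178), and C1qtnf1 was the lowest with TCF12 (0.306).

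For all 5 genes the lowest of the 9 heterodimer samples lay above the highest of the other 12. This held for 317 of the 14311 tested genes (2.22%), and since the genes were picked for this height their count is a description. Ranked by the gap between those samples on the scale of log2(CPM + 0.5), Gdf10 was number 6 of the 317 with a gap of 1.63, Bhlhe22 number 13 with 1.24, Ebf2 number 30 with 0.90, Rgs4 number 91 with 0.40 and C1qtnf1 number 105 with 0.36. In the fit, the mean of the 3 heterodimer lines stood above the homodimer line by log2 fold changes of 2.83 ± 0.52 for C1qtnf1, 3.11 ± 0.30 for Bhlhe22, 3.90 ± 0.45 for Gdf10, 5.08 ± 0.66 for Ebf2 and 5.85 ± 0.60 for Rgs4 (SE). With so few homodimer counts the larger of these rest on 1 or 2 reads.

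**Figure D2:**
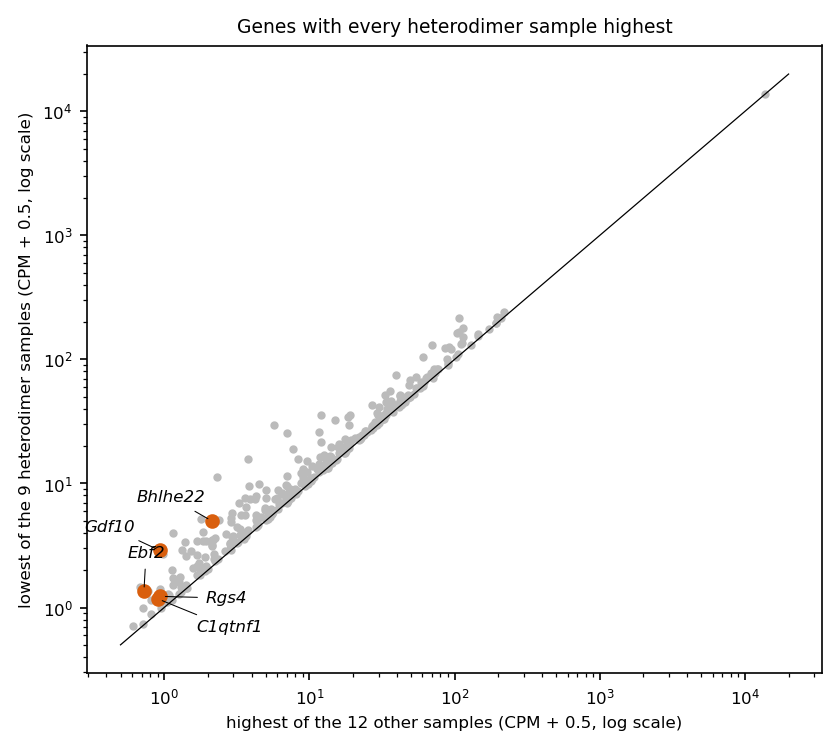
The 317 genes whose 9 heterodimer samples all lay above the 12 others, with the highest other sample on the x axis and the lowest heterodimer sample on the y axis, in CPM + 0.5 on log scales. The line marks equal values, and the 5 genes (orange, named) lie at the low end of expression, with Gdf10 and Bhlhe22 farther above the line than Ebf2, Rgs4 and C1qtnf1.

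Comparisons without the heterodimer libraries ask whether the integrated line itself, free TWIST1 or the homodimer moved these genes. Rgs4, Ebf2, Gdf10 and C1qtnf1, at 0 to 4 counts per library here, could hardly have passed, so for them these tests say little. None of the 5 passed in any of the 3 (edgeR quasi-likelihood test, adjusted p under 0.05 over all genes tested). The uninduced monomer and parental libraries took no part in the choice of genes, and between them 19.9% of all tested genes passed. Bhlhe22 had the smallest adjusted p of the 5, 0.15, with a log2 fold change of -1.70 ± 0.79 (SE) and an unadjusted p of 0.044, the only one of the 5 under 0.05 there, with 0 under it in each of the other 2 comparisons. The induced monomer line was the low side of the choice for all members but Ebf2, and the homodimer line for Rgs4 and Ebf2. An absence of a rise in these 2 lines is therefore no support. With doxycycline in the monomer line 2% of all genes passed, and the smallest adjusted p among the 5 was 0.56 (Rgs4, from 1 count in each sample to 0). Between the homodimer and parental lines 8.84% of all genes passed and the smallest adjusted p was 0.39 (Rgs4). Bhlhe22 gave 0.77 ± 0.52 there, with a 95% interval of -0.32 to 1.86. The intervals of the other 4 genes in these comparisons spanned at least 4 log2 units, so changes of several fold were not detectable at this depth. DESeq2 also called 0 of the 5 in each.

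The homodimer and uninduced monomer lines were also set side by side, after the Bhlhe22 values of these 2 groups had been seen not to overlap, so the difference is a description with no test. Bhlhe22 stood higher in the homodimer line by a log2 fold change of 2.46 ± 0.70 (SE), between lines where 22.8% of all genes passed.

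The 3 heterodimer lines were compared with each other next. This difference was not the measure by which Rgs4, picked in all 3 lines, or Ebf2, picked on their mean, was chosen. The choice did use the levels of these same libraries. Both genes also passed the filter on low counts only through heterodimer libraries, so the p-values below are not free of that choice. Rgs4 had 16, 12 and 12 counts with TCF4, near the filter's count of 10. Rgs4 differed among the lines (edgeR, adjusted p 1.1e-04) and so did Ebf2 (adjusted p 0.0031), in a test that 26% of all genes passed. Rgs4 was lower in the TCF4 dimer line than with TCF3 by a log2 difference of 2.24 ± 0.30 (adjusted p 4.4e-05, 19.7% of all genes passing) and than with TCF12 by 1.89 ± 0.31 (adjusted p 0.0042, 3.24% of all genes passing). Between TCF3 and TCF12 the Rgs4 difference was 0.35 ± 0.25 (95% interval -0.18 to 0.88, adjusted p 0.33, 18.8% of all genes passing). For Ebf2 the same 3 log2 differences were 1.82 ± 0.36 (adjusted p 0.0012), 1.46 ± 0.37 (adjusted p 0.038) and 0.36 ± 0.32 (95% interval -0.30 to 1.03, adjusted p 0.43). These are 6 comparisons, each adjusted over all 14311 genes in its contrast. Without sample 1 labelled TCF12 dimer, the differences of TCF12 from TCF4 were 2.02 ± 0.30 for Rgs4 (adjusted p 7.1e-05) and 1.75 ± 0.30 for Ebf2 (adjusted p 4.7e-04).

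Both differences between TCF3 and TCF4 passed in all 28 alternative settings (largest adjusted p 8.0e-04 for Rgs4 and 0.012 for Ebf2). The Rgs4 difference between TCF12 and TCF4 was lost without sample 3 of the TCF4 dimer line (adjusted p 0.055) and in a fit of these lines alone (adjusted p 0.28), and passed in the other 26 settings. The Ebf2 difference between TCF12 and TCF4 was lost in 10 of 28 settings. Among these were leaving out sample 2 or 3 of the TCF4 dimer line (adjusted p 0.14 and 0.18) or sample 2 labelled TCF12 dimer (0.059). Leaving out parental sample 1 or 2, uninduced monomer sample 2, induced monomer sample 1 or sample 3 labelled TCF3 dimer gave 0.0505 to 0.0531. The other 2 were scaling by library size only (0.067) and a fit of these lines alone (0.63), and the smallest adjusted p in any setting was 4.7e-04. Fitted on only the compared lines, the adjusted p for Ebf2 among the 3 lines was 0.062.

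For Bhlhe22, C1qtnf1 and Gdf10, which were picked in some heterodimer lines and not in others, the differences between lines are descriptions. Bhlhe22 followed Rgs4 and Ebf2, with log2 differences of 1.49 ± 0.25 for TCF3 and 1.49 ± 0.25 for TCF12 over TCF4, and 0.01 ± 0.23 between TCF3 and TCF12. C1qtnf1 stood 1.99 ± 0.35 higher with TCF3 than with TCF4 and 1.55 ± 0.34 higher than with TCF12, and the TCF12 and TCF4 values differed by 0.44 ± 0.42. Gdf10 was 0.94 ± 0.30 lower with TCF3 than with TCF12, 0.77 ± 0.29 higher with TCF12 than with TCF4, and differed by -0.18 ± 0.31 between TCF3 and TCF4. Twist1 itself averaged 55.2, 39.4 and 42.3 CPM with TCF3, TCF4 and TCF12, and its part in these differences was not tested.

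**Figure D3:**
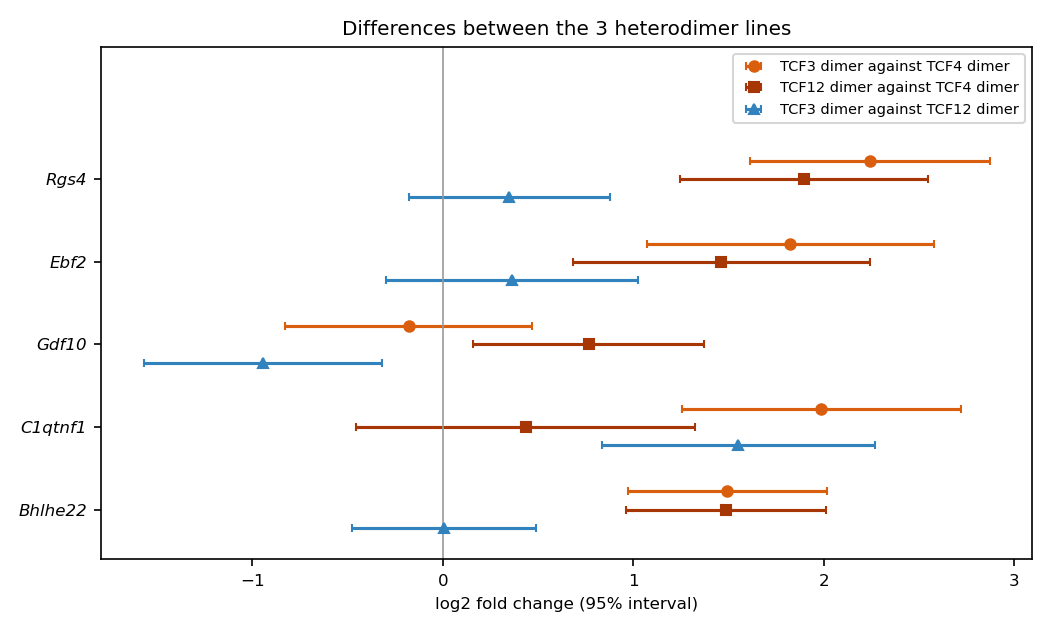
Log2 fold changes between the heterodimer lines for each gene, with 95% intervals from the fit of all 21 samples. Circles and squares (TCF3 and TCF12 over TCF4) lie to the right of 0 for Rgs4, Ebf2 and Bhlhe22, while the intervals of the triangles (TCF3 over TCF12) include 0 for those 3 genes, lie to the right of it for C1qtnf1 and to the left for Gdf10.

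Relatives of each gene were taken from lists written with earlier results of these data known, and were compared between the mean of the 3 heterodimer lines and each of the other 4 groups. These 4 comparisons share the heterodimer libraries. Of the 44 listed relatives 26 passed the filter. Of the tested relatives 10 stood higher and 2 lower than in the parental line, where 12.4% of all tested genes were higher and 11% lower. For the uninduced monomer the counts were 13 and 1 (19% and 17.9% of all genes), for the induced monomer 13 and 1 (16.5% and 14.8%), and for the homodimer 4 and 3 (7.99% and 6.04%). The median log2 fold change of the tested relatives was 0.15, 0.34, 0.28 and 0.04 in that order, where all genes gave 0.02, 0.01, 0.01 and 0.01.

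The list of Ebf2 had the largest median. Of its 5 listed relatives (Ebf1, Ebf3, Ebf4 and the EBF-binding zinc-finger proteins Zfp423 and Zfp521), 3 were higher than in the parental line, 5 than in each monomer group and 2 than in the homodimer line, and 0 were lower in any, also at an unadjusted p under 0.05 and by DESeq2. The median log2 fold changes were 1.10, 1.62, 1.31 and 0.38. Ebf1 and Ebf3 rose against all 4 groups. Ebf1 averaged 34.9 ± 3.3 CPM with TCF3, 24.8 ± 0.1 with TCF4 and 28.2 ± 7.7 with TCF12, against 7.76 to 20.7 CPM in the other groups (log2 fold change over the homodimer line 0.74 ± 0.15, edgeR adjusted p 0.0014). Ebf3, scarcer than Ebf2, averaged 0.948 ± 0.14, 0.50 ± 0.18 and 1.30 ± 0.14 CPM against 0.0985 to 0.235 CPM (2.95 ± 0.59 over the homodimer line, adjusted p 0.0017). It did not exceed 0.391 CPM outside the heterodimer lines and, like Ebf2, passed the filter on low counts only through heterodimer libraries. A rise was thus close to the only call Ebf3 could give, and its calls, which are among the counts above, say little. Ebf4 rose over the parental line and both monomer groups but stood at 2.59 ± 0.54 CPM in the homodimer line itself. Its difference from the homodimer line was -0.20 ± 0.24 (adjusted p 0.71). Zfp423 and Zfp521 rose only over the monomer groups in this fit, by 0.65 to 1.31. The monomer line itself was low for both. The uninduced monomer line against the parental line gave -0.47 ± 0.12 for Zfp423 (edgeR adjusted p 0.0095) and -1.21 ± 0.21 for Zfp521 (3.2e-04). Against the parental line the heterodimer mean differed by 0.20 ± 0.10 and -0.01 ± 0.15. The Ebf1 call against the induced monomer line was lost without sample 2 or 3 of that line (adjusted p 0.055 to 0.073), and the Ebf3 call against the uninduced monomer line without sample 1 of that line (adjusted p 0.061).

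Among the 9 listed relatives of Rgs4 in the same R4 class of regulators, 3 passed the filter, and 3, 3, 2 and 1 of them were higher against the 4 groups in the order above, with 0 lower at an adjusted or unadjusted p under 0.05 or by DESeq2. The median log2 fold changes of the 3 were 1.01, 1.31, 0.87 and 0.33. Rgs2, which acts mainly on Gq, rose against all 4 groups. Its mean was 9.10, 9.48 and 12.7 CPM with TCF3, TCF4 and TCF12 against 3.45 to 5.25 CPM elsewhere (0.97 ± 0.15 over the homodimer line, edgeR adjusted p 1.7e-04). Rgs16 rose over the parental line and both monomer groups by 0.87 to 1.31, and gave 0.33 ± 0.13 over the homodimer line (adjusted p 0.10). Rgs3 rose over the parental line by 0.52 ± 0.12 (adjusted p 0.0034) and over the uninduced monomer line by 0.32 ± 0.12, the latter lost in 10 of the 21 fits that leave out 1 library (adjusted p 0.051 to 0.31). Those libraries were parental sample 3, uninduced monomer sample 1, induced monomer sample 3, all 3 homodimer samples, samples 1 and 2 labelled TCF3 dimer, and samples 1 and 3 of the TCF4 dimer line. Between heterodimer lines Rgs3 and Rgs16 averaged 13.4 to 14.4 and 8.68 to 10.3 CPM, a narrower spread than the 1.00 to 4.71 CPM of Rgs4. Rgs2, at 9.10 to 12.7 CPM, spread about as widely as Rgs4 in CPM, from a higher level and with its highest mean with TCF12. Those differences were not tested.

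The 6 G-protein alpha subunits on which such regulators act were all tested. Of the 6, 1, 2, 3 and 0 were higher and 2, 1, 1 and 2 lower, and their median log2 fold changes were -0.01, 0.04, 0.12 and -0.08. Gnao1, a Go subunit, rose over the uninduced and induced monomer lines by 1.06 ± 0.18 and 0.91 ± 0.17. Gnaq rose over the parental line and the 2 monomer groups by 0.37 to 0.38, calls that were lost without parental sample 1 or 3, without sample 1 of the TCF4 dimer line, without sample 2 or 3 of the uninduced monomer line, or without any 1 induced monomer sample (adjusted p 0.052 to 0.13). Gnai1 fell against the parental and homodimer lines by 0.31 and 0.33 on the log2 scale. Gnai2 fell against the same lines by 0.25 and 0.20 and rose by 0.19 over the induced monomer line. Gna11 fell against the monomer groups by 0.17 and 0.18, and each of these calls was lost in 4 fits that leave out 1 library. Those were without uninduced monomer sample 1 or 3, TCF4 dimer sample 2 or sample 3 labelled TCF12 dimer for the first (adjusted p 0.052 to 0.14). For the second they were any induced monomer sample or TCF4 dimer sample 2 (0.058 to 0.13). Gnai3 did not pass in any of the 4.

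Of the 8 genes listed with Gdf10, its nearest relative Bmp3 was at 8 counts or fewer in every library and was not tested. The other 7 are receptors and the intracellular effectors of the activin and TGF-beta branch, of which 3, 3, 3 and 1 were higher and 0, 0, 0 and 1 lower, with medians of 0.17, 0.35, 0.18 and 0.09. Smad3, an effector, rose against all 4 groups, from 18.5 to 25.4 CPM elsewhere to 41.6 ± 6.2, 37.6 ± 2.5 and 37.8 ± 5.9 CPM with TCF3, TCF4 and TCF12 (0.62 ± 0.12 over the homodimer line, edgeR adjusted p 9.9e-04). Tgfbr2, the TGF-beta type II receptor, rose over the parental and uninduced monomer lines by 0.99 ± 0.15 and 0.74 ± 0.15 and fell against the homodimer line by 0.57 ± 0.12, whose own mean of 16.9 CPM was the highest of the 7 groups. Tgfbr1, the type I receptor, rose over the monomer groups by 0.65 ± 0.13 and 0.47 ± 0.13. Smad2 rose over the parental line by 0.22 ± 0.07, which was lost without any 1 parental sample (adjusted p 0.057 to 0.14). Acvr2a, an activin receptor, rose over the induced monomer line by 0.32 ± 0.11, which was lost without any 1 sample of that line (adjusted p 0.053 to 0.11).

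The relatives of C1qtnf1 and Bhlhe22 did not pass in any of the 4 comparisons, by edgeR or DESeq2. For C1qtnf1, 5 of 11 were tested (C1qtnf4, C1qtnf6, Fam132a, which is the older symbol of C1qtnf12, and the adiponectin receptors Adipor1 and Adipor2). Their median log2 fold changes were 0.08, 0.14, 0.05 and 0.07, and 1, 0, 1 and 0 had an unadjusted p under 0.05 (Adipor1, then C1qtnf6). For Bhlhe22, none of its 5 listed relatives and partners (Bhlhe23, Olig1, Olig2, Olig3 and Prdm8) passed the filter, the highest being Bhlhe23 at 12 counts in 1 library.

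Without sample 1 labelled TCF12 dimer, the number of relatives higher than in the homodimer line was 9 in place of 4. Smad2, Tgfbr1, Zfp521, Gnaq and Adipor2 were the additions, with log2 fold changes of 0.11 to 0.44. The 4 that passed with all libraries (Ebf1, Ebf3, Rgs2 and Smad3) also passed without it. Over all genes the number higher went from 1143 to 2117 in the same step, so the gain in calls is general.

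**Figure D4:**
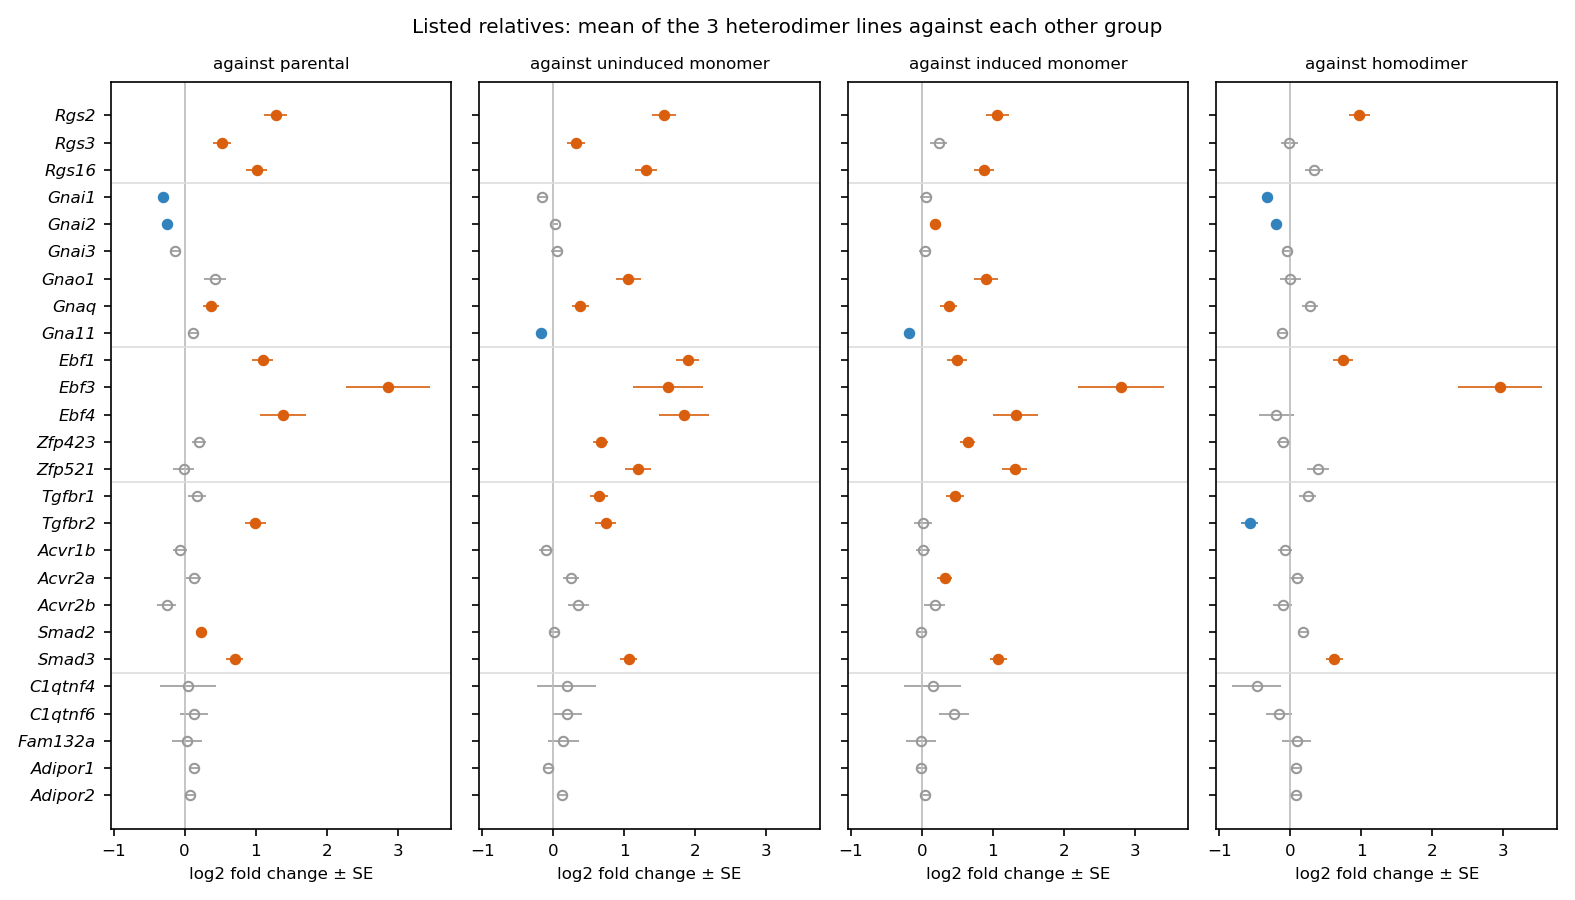
Log2 fold changes of the 26 tested relatives, with SE, for the mean of the 3 heterodimer lines against each of the other 4 groups. Orange points passed as higher, blue points passed as lower and open grey points did not pass, and horizontal lines divide the lists. Rgs2, Ebf1, Ebf3 and Smad3 are orange in all 4 panels.

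Neighbouring genes were taken whatever their values. Of the 20 nearest protein-coding genes, 2 on each side of each member, 19 were matched among the symbols and 13 were tested. Of these, 1, 3, 3 and 3 were higher against the parental, uninduced monomer, induced monomer and homodimer lines, beside 12.4%, 19%, 16.5% and 7.99% of all genes. The counts lower were 0, 4, 4 and 0, beside 11%, 17.9%, 14.8% and 6.04% of all genes. The 4 lower ones were all neighbours of Ebf2 (Ppp2r2a, Bnip3l, Cdca2 and Kctd9), which stood high in both monomer groups. Bnip3l, for example, averaged 205.7 and 217.4 CPM there and 123.3 CPM in the parental line. The heterodimer lines differed, with Bnip3l at 208.2, 128.5 and 142.1 CPM with TCF3, TCF4 and TCF12. Ppp2r2a, Cdca2 and Kctd9 also had their highest heterodimer mean with TCF3 (230.3, 98.1 and 38.1 CPM), below both monomer groups. Cyp7b1, which lies 14430 bases from Bhlhe22 and encodes a sterol hydroxylase, rose over the uninduced monomer line by 2.32 ± 0.29, over the induced monomer line by 1.68 ± 0.26 and over the homodimer line by 1.27 ± 0.23 (edgeR, largest adjusted p 7.0e-04). It was at 2.22 ± 0.66 CPM in the parental line, where the difference was 0.30 ± 0.20 (adjusted p 0.32). These 3 calls held in all 28 alternative settings. Cant1, 9323 bases from C1qtnf1, rose over the same 3 groups by 0.25 to 0.31. Its call over the uninduced monomer line was lost without sample 2 of that line. Its call over the homodimer line was lost in 8 settings, among them leaving out parental sample 3, homodimer sample 2 or 3, TCF3 sample 1 or 2 or TCF4 sample 3 (adjusted p up to 0.28). The rise of Bnip3l over the homodimer line, 0.15, was lost in 22 of 28 settings (adjusted p up to 0.36), including the removal of any 1 library other than TCF4 sample 3 or TCF12 sample 1 or 3. Hsd17b7, beside Rgs4, rose over the uninduced monomer line by 0.43, a call lost without any 1 sample of that line (adjusted p up to 0.097). Gdf2, 4525 bases from Gdf10 and a member of the same growth factor superfamily, had at most 2 counts in any library.

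Over the 21 samples the genes with the levels most like each member, by Pearson's r of log2(CPM + 0.5), were as follows. The samples fall into groups of high and low libraries, which these r values share, so they describe likeness of pattern and carry no test. Those nearest Rgs4 were Emilin3 (r = 0.967), Angpt1 (0.966) and Isl1 (0.953). Those nearest Ebf2 were Spred1 (0.959), Angpt1 (0.957) and Sema5b (0.956). Those nearest C1qtnf1 were 9530068E07Rik (0.961), Frem1 (0.950) and Spred1 (0.946). For Gdf10 they were Ssc5d (0.966), Rnf146 (0.963) and Shisa2 (0.962), and for Bhlhe22 Bmp7 (0.981), Col5a1 (0.980) and Igfbp4 (0.975). Angpt1, a vascular growth factor that appears beside both Rgs4 and Ebf2, averaged 2.09, 0.657 and 1.28 CPM with TCF3, TCF4 and TCF12 and 0.0674 to 0.142 CPM elsewhere. Rnf146, beside Gdf10, differed far less in size, at 43.9 to 48.2 CPM in the heterodimer lines and 30.9 to 33.5 CPM elsewhere.

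Markers of other cell types also differed between the groups, not all in the pattern of the 5 genes. The 6 listed genes of lateral and extraembryonic mesoderm summed to 30.5 to 38.9 CPM with TCF3, 16.4 to 18.7 with TCF4 and 27.3 to 33.4 with TCF12, and to 10.4 to 14 CPM in the 12 other libraries. Of the 6, Hand1, Hand2 and Kdr were higher against all 4 groups, and Hand2 was at 0 in the uninduced monomer line. Foxf1 was higher only over the uninduced monomer line and Tbx20 only over the homodimer line. Pecam1 passed in none, at 11.4, 6.17 and 3.99 CPM with TCF3, TCF4 and TCF12 and 7.80 to 8.66 CPM elsewhere. Like the means of Rgs4, Ebf2, C1qtnf1 and Bhlhe22, the sum of the 6 genes was lowest with TCF4 among the heterodimer lines. This was not particular to that list. With TCF3, TCF4 and TCF12 the mean sum was 97.1, 42.9 and 69.8 CPM for the paraxial mesoderm and mesenchyme list. For the primitive and visceral endoderm list it was 104.5, 24.4 and 30.2 CPM. The neural, neural crest and pluripotency sums were lowest with TCF3. The part of these sums in the levels of those genes was not tested. The 8 listed genes of paraxial mesoderm and mesenchyme summed to 39.5 to 104.5 CPM in the heterodimer lines and 27.4 to 105.3 CPM elsewhere, with Meox2 at 0 in the parental and uninduced monomer lines. Members of this list moved both ways. Meox2, Prrx1 and Prrx2 were higher against all 4 groups, while Tcf15 was lower against both monomer groups and the homodimer line. Hand1, Hand2 and Meox2 did not exceed 0.488, 0.269 and 0.180 CPM in the 12 other libraries. These 3 passed the filter on low counts only through heterodimer libraries, so their calls as higher say little. Pdgfra was lower against both monomer groups and higher against the parental and homodimer lines. The 6 neural markers summed to 96.4 to 157.0 CPM in the heterodimer lines, 93.3 to 99.5 CPM in the homodimer line and 37.6 to 65.8 CPM in the parental and monomer groups. Tubb3 made up most of that sum (98.9 CPM with TCF3, 87.5 CPM in the homodimer line). Pax6 and Tubb3 were higher than in the parental line and both monomer groups. Pax6 and Dcx were lower than in the homodimer line and Dcx lower than in the parental line. The 6 markers of primitive and visceral endoderm summed to 172.3 to 205.9 CPM in the monomer groups, 92.2 to 112.9 CPM with TCF3 and 22.4 to 59.7 CPM in the other 4 groups. The 6 neural crest markers summed to 38.8 to 44.7 CPM with TCF3 and 54.4 to 67.9 CPM elsewhere, most of it Foxd3. The mean of the heterodimer lines was lower for Foxd3 against all 4 groups, but the lines differed. Foxd3 averaged 33.0 CPM with TCF3, 55.6 with TCF4 and 52.5 with TCF12, against 55.3 to 57.2 CPM in the other groups. Pax3 was higher against all 4, at 5.21, 3.08 and 7.38 CPM with TCF3, TCF4 and TCF12 and 0.211 to 1.35 CPM elsewhere. The 6 pluripotency genes summed to 771.4 to 1039 CPM in the heterodimer lines and 1072 to 1244 CPM elsewhere. Only Sox2 was lower against all 4 groups. Pou5f1 passed in none, and Nanog was lower only against the parental line. Zfp42, Esrrb and Klf4 were lower against both monomer groups, and Zfp42 and Esrrb also against the homodimer line. The lines differed, with Zfp42 at 129.4, 62.3 and 63.5 CPM with TCF3, TCF4 and TCF12 and 84.7 CPM in the parental line. The part of these lists in the levels of the 5 genes was not tested.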

How the data were processed

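Raw counts per gene were deposited for 21 RNA-seq libraries (TruSeq mRNA kit, per the labels). The submitters' processing notes name FastQC, TopHat2, HTSeq, mm10 and GRCm38, without versions. Strand setting and annotation are not given in the sources used here. Tables were joined by position, since 18 of them hold 25 March and Sept symbols as dates. The other 3, labelled TCF12 dimer, do not, so that step in file making cannot be told apart from the group.

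CPM used TMM factors. In edgeR 4.0.16 (limma 3.58.1, R 4.3.3), 1 mean per group was fitted to all 21 samples, after filterByExpr at its defaults (count 10, total 15) left 14311 genes. The quasi-likelihood test was adjusted by Benjamini-Hochberg over all of them, and passing means an adjusted p under 0.05. SEs derive from the F statistic. Count ratios carry exact (Clopper-Pearson) 95% intervals. The code was tested on simulated data.

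The members and lists were chosen with earlier results of these data known. Named are the members, relatives that passed in at least 1 comparison or counts of 3 or fewer, the 2 nearest protein-coding genes on each side, the 3 genes most like each member and the construct genes. Gene models are GENCODE M21.

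Replicate numbers did not pair the samples (mean correlation of deviations 0.02 over 63 same-numbered pairs, lowest -0.22). Alternatives were DESeq2 1.42.0, RLE or no scaling factors, other filters (none, or 1 CPM in 3 samples), fits of the compared groups alone, a replicate block and leaving out each sample. The homodimer against uninduced monomer comparison was added after the values were seen. A result that needs an item withheld for evaluation is not reported here.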

Additional observations from a re-analysis of the deposited data

Results flagged for a closer look

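Rgs4 and Ebf2 were lower in the TCF4 dimer line than in the lines labelled with TCF3 and with TCF12 by a test of the difference between lines. That difference was not the measure by which these genes were chosen, but the levels of the same libraries were used for the choice. Both passed the filter on low counts only through heterodimer libraries. For Rgs4 the log2 differences were 2.24 (TCF3 over TCF4) and 1.89 (TCF12 over TCF4). For Ebf2 they were 1.82 and 1.46. The 2 differences from TCF12 were lost in some alternative settings and those from TCF3 in none of the 28 run. Groups of 3 were not tested for outlying samples.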

How the results depend on the processing

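No member passed between the uninduced monomer and parental, the induced and uninduced monomer, or the homodimer and parental lines in any setting, which for 4 of the 5 their counts fixed beforehand. In the fit of only the groups compared the filter left none of the 5 in the first 2 of these. The number of the 5 passing among the heterodimer lines was 5, in a test that 26% of all genes passed. It was 4 by DESeq2, 3 in the fit of only those lines, where 922 genes passed, and 4 to 5 when 1 sample was left out. Rgs4, Ebf2, Gdf10 and C1qtnf1 reached this test only through the heterodimer libraries. Gdf10 lost the call in 16 of 28 settings, and for Bhlhe22, C1qtnf1 and Gdf10 the count is a description. Between the homodimer and uninduced monomer lines, a comparison prompted by the Bhlhe22 values, leaving out 1 sample gave 0 to 1 members passing. With all samples 22.8% of all genes passed there.

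The TCF12 over TCF4 difference was 1.89 for Rgs4 and 1.45 for Ebf2 in the fit of only those lines and 1.40 for Ebf2 with library size only, all 3 no longer passing. When 1 sample was left out it ranged from 1.68 to 2.09 for Rgs4 and from 1.19 to 1.82 for Ebf2. With the replicate block it was 1.88 and 1.47, both passing. The block changed 1 call named here, that of Rgs3 over the uninduced monomer line (adjusted p 0.055).

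Relatives lower than in the uninduced monomer line numbered 1, and 0 with library size only, and 0 to 2 when 1 sample was left out. Relatives lower than in the induced monomer line numbered 1, and 0 with library size only, with no filter and with only the groups compared, and 0 to 1 when 1 sample was left out. Relatives higher than in the homodimer line numbered 4 to 9 when 1 sample was left out, 9 being without sample 1 labelled TCF12 dimer.

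Removing that library lowered the common biological coefficient of variation from 0.12 to 0.054. With only the groups compared, 5029 genes passed between the uninduced monomer and parental lines, 682 between the monomer groups, 3113 between the homodimer and parental lines, 5180 between the homodimer and uninduced monomer lines and 922 among the heterodimer lines. In the same setting 754 were higher and 556 lower than in the homodimer line. Leaving out 1 sample, these ranged from 2022 to 5312, 173 to 890, 919 to 2948, 2440 to 5458 and 2362 to 7219, and from 707 to 2117 higher and 585 to 2056 lower than in the homodimer line. The heterodimer class had 1253 to 2787 genes higher and 1088 to 2779 lower than the parental line, 1980 to 3998 lower than the uninduced monomer line and 1629 to 3481 lower than the induced monomer line. At 4 counts or fewer per library outside the heterodimer lines, depth limits what can be said of 4 of the 5 genes there.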

Other observations

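Of the 48321 symbols, 32936 averaged under 0.5 CPM in each of the parental, monomer and homodimer groups, and 53 of these averaged at least 0.5 CPM in all 3 heterodimer lines. Rgs4, Ebf2, Gdf10 and C1qtnf1 are 4 of the 53. Bhlhe22 is not, because of its levels in the parental and homodimer lines.

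Of the 317 genes whose 9 heterodimer samples all lay above the others, some had a wider gap than Gdf10, and 4 of them are named here after their values had been seen. Tril, an accessory protein of Toll-like receptor signalling, had a lowest heterodimer value of 29.0 CPM and a highest other value of 5.25 CPM. Serpinf1, a secreted serpin, had 15.3 and 3.26 CPM. Snai1, a zinc-finger repressor known for its part in epithelial to mesenchymal transition, had 24.8 and 6.51 CPM. Slc1a2, a glutamate transporter, had 3.46 and 0.648 CPM.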
